A study of Mus musculus with 24 samples.

Results

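The genes that carry the Wnt signal from ligand to β-catenin were examined for binding of 3 transcriptional regulators (TRs) in embryonic mouse cortex. Members were all protein-coding genes on chromosomes 1 to 19 whose symbols name a Wnt ligand, a Frizzled or LRP5/6 receptor, a core transducer (Apc, Axin1, Ctnnb1, Gsk3b, Dvl1 to Dvl3), or a feedback gene or inhibitor (Axin2, Nkd1, Nkd2, Rnf43, Znrf3 and named Dkk and Sfrp genes). This gave 49 of 20807 autosomal protein-coding genes, with 19 ligands, 12 receptors, 7 transduction genes and 11 feedback genes or inhibitors. The data were ChIP-seq peaks, which are places where fragments pulled down with an antibody pile up above background. The TRs were ARID1B, which belongs to the BAF chromatin remodelers, FOXP1, of the forkhead family, and TCF7L2, the partner that β-catenin joins on DNA. They were profiled in wild-type cortex at E15.5 and E18.5. The series has 24 libraries (12 ChIP, 12 input) in 12 groups of 2 replicates. The labels write TCF4 for the TR that the study's text and antibody list call TCF7L2. The cortex was taken whole, so binding in a few cells and weak binding in many cannot be told apart, and no marker of a cell type could be checked in peak lists.

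Wnt ligands bind Frizzled receptors and the co-receptors LRP5 and LRP6 and halt a destruction complex of APC, AXIN1 and GSK3B, so that β-catenin accumulates and joins TCF/LEF factors on target genes. Several targets, among them Axin2, Nkd1, Rnf43 and Znrf3, act back on the pathway as brakes. In developing cortex the pathway is known for its part in regional patterning and in the balance between progenitor division and differentiation.

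The 6 lists held 24890 to 71442 peaks. Each list was treated as called on merged replicates, as the methods describe, so no spread between replicates can be given and no difference between lists was tested. Heights are fold enrichments at the summit over a background that was constant along the genome. The number of ChIP reads over each summit was recovered from the fold enrichment and its p-value, and the 95% intervals given below are exact Poisson intervals on those reads, which cover counting error only. FOXP1 at E18.5 had the lowest background, 2.81 scaled reads, against 6.13 to 8.63 in the other lists, and the shortest list. The scale differed by list, with 1 ChIP read worth 0.561 for FOXP1 at E18.5 and 0.775 to 1 in the others.

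The sequences under the highest TCF7L2 peak at Axin2 and under the highest of the TCF7L2 peaks with a TCF/LEF core at 3 other members are shown first, because TCF/LEF factors are the DNA-binding end of the pathway. The core searched for was ATCAAAG, or CTTTGAT on the other strand, within 200 bp around the summit. Capitals mark the core. All are plus strand sequences of GRCm38 (RefSeq GRCm38.p6), and where the 200 bp hold annotated untranslated bases the longest stretch free of them is printed. At Dkk3 that stretch leaves out the summit, which lies in the neighboring exon.
Axin2, first intron, chr11:108920562-108920721: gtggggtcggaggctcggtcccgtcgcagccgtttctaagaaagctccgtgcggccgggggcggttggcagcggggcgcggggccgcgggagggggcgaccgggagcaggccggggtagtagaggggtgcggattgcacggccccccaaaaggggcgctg
Wnt10a, intron, chr1:74797537-74797736: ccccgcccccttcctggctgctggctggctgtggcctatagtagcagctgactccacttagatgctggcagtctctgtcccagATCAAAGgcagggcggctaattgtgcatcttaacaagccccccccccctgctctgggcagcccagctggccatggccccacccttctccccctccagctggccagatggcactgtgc
Nkd1, promoter, chr8:88521086-88521285: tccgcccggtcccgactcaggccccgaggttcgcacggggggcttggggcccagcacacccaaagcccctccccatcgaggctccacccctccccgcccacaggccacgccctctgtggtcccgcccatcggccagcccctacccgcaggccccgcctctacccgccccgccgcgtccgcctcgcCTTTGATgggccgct
Dkk3, first intron, chr7:112158419-112158511: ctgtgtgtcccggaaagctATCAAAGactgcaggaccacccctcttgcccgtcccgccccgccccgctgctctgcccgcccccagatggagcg

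No core lay within 100 bp of the Axin2 summit. Over the whole peak, which spanned 2729 bp at E15.5 against 3132 bp at E18.5, 3 cores were found, the nearest of them 176 bp and 192 bp from the summit; the whole peak was searched after its height had been seen. The Wnt10a site was listed at both stages, reaching 7.23 at E15.5 against 8.76 at E18.5, and it also lies in the flank of the neighboring Wnt6. The Nkd1 peak (7.88) and the Dkk3 peak (3.94) were those of E18.5. In Nkd1 the core lay 88 bp from the E18.5 summit but 274 bp from that of E15.5, outside the stretch searched. The Dkk3 core also lay under a peak at E15.5, of 3.47.

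Axin2, a scaffold of the destruction complex and a widely used readout of Wnt activity, carried the highest TCF7L2 promoter peak of all members. A promoter was the 2000 bp upstream of any annotated transcription start site (TSS), and where several peaks overlapped a promoter the highest is given. Fold enrichment of TCF7L2 at Axin2 was 32.2 at E15.5 (interval 28.7 to 36.0, 307 reads) against 37.5 at E18.5 (33.7 to 41.7, 342 reads). Among genes with a TCF7L2 promoter peak it ranked 2 of 12303 at E15.5 against 2 of 13099 at E18.5, behind Rnf44 at both stages. For ARID1B, Axin2 reached 6.06 at E15.5 against 7.01 at E18.5. For FOXP1 it reached 9.11 and 8.21, below the median of all bound genes, which was 10.8 and 8.80. When the peak with its summit nearest to a TSS was taken in place of the highest, Axin2 had 2.74 for TCF7L2 at E18.5, a small peak at an internal TSS, and 3.48 for ARID1B at E15.5. No test of the difference between TRs was possible. The Axin2 gene (chr11:108920349-108950783) also held weaker peaks along its introns, and from 2 (FOXP1, E18.5) to 16 (ARID1B, E18.5) peaks lay in its body and 20 kb flanks.

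**Figure D1:**
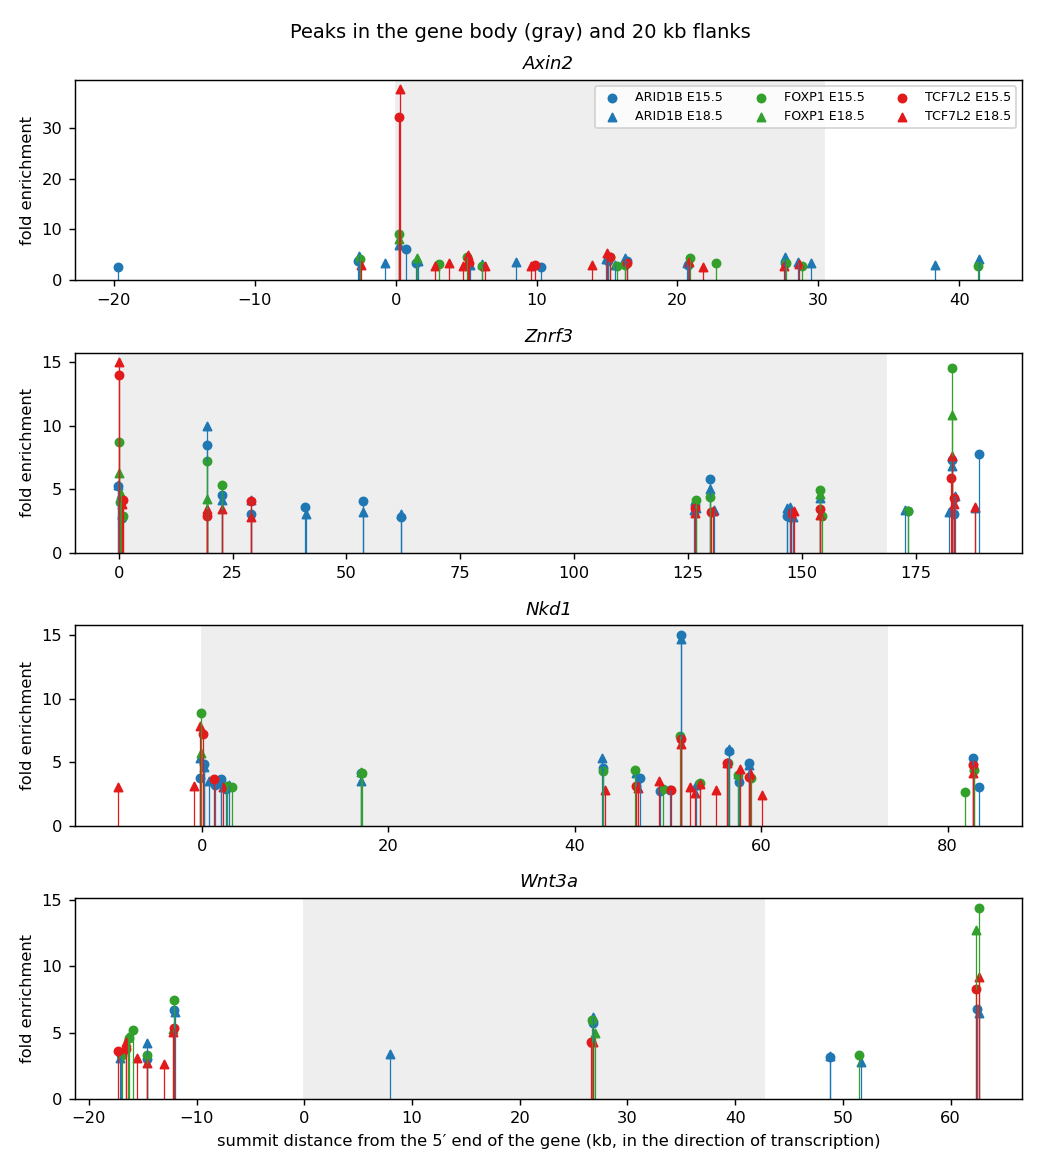
Summit positions (x axis, kb from the 5′ end of the gene in the direction of transcription) and fold enrichments (y axis, linear) of all peaks in the gene body and 20 kb flanks of Axin2, Znrf3, Nkd1 and Wnt3a. Color gives the TR, circles E15.5 and triangles E18.5; the TCF7L2 peaks of Axin2 at 32.2 and 37.5 stand far above its other peaks, while Wnt3a has none at its start.

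Promoter peaks were found at 33 members for ARID1B at E15.5 (60.9% of all autosomal protein-coding genes had one), at 40 for FOXP1 at E15.5 (63.4%) and at 33 for TCF7L2 at E15.5 (59.1%). At E18.5 the counts were 34 for ARID1B (59.4%), 32 for FOXP1 (56.7%) and 42 for TCF7L2 (63%). As shares of the 49 members these were 67.3%, 81.6%, 67.3%, 69.4%, 65.3% and 85.7%. A promoter peak of each of the 3 TRs, at the same or different TSSs of the gene, was found at 29 members at E15.5 (57.4% of all genes) against 29 at E18.5 (54.9%), which is 59.2% of members at each stage. With the summit required inside the promoter these were 18 and 19 members, and 21 and 15 when peaks under a −log10 p of 15 were dropped. For ARID1B the counts of 33 and 34 were 21 and 22 with lists cut to the length of the shortest, the earlier stage first. The same cut turned 40 and 32 into 32 and 32 (FOXP1), and 33 and 42 into 30 and 31 (TCF7L2). The FOXP1 count at E18.5 was 18 under the stricter p-value. A promoter peak in all 6 lists was found at 25 members, 51% of them, against 53.9% of all genes, and none in any list at 5 members, 10.2%, against 34.3%.

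**Figure D2:**
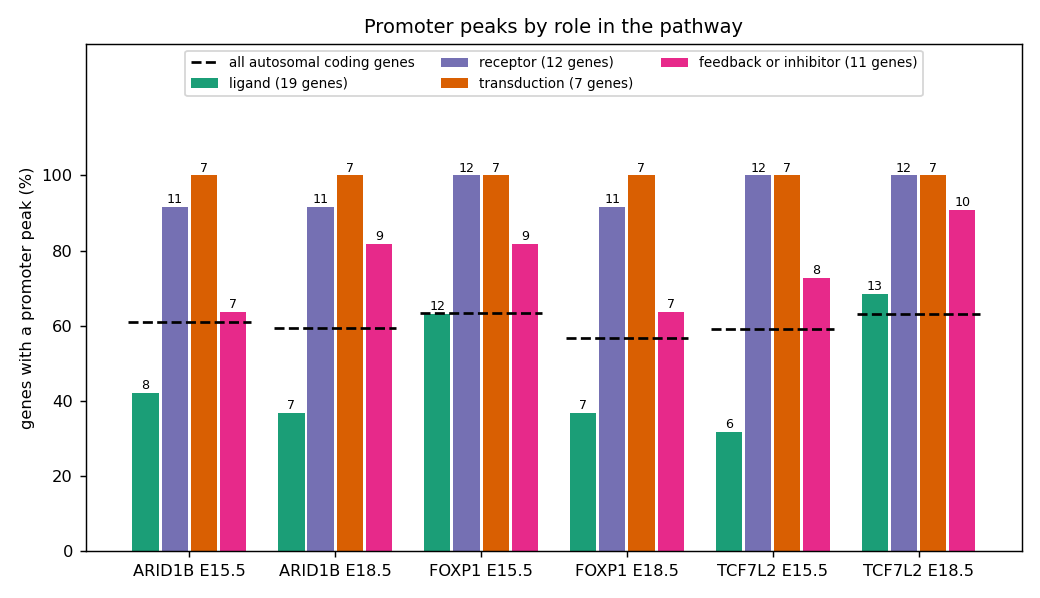
Share of members with a promoter peak (y axis, percent) in each list, by role in the pathway; numbers on the bars are genes, and the dashed line is the share of all autosomal protein-coding genes. The 7 transduction genes reach 100% in each list, and ligands lie between 31.6% and 68.4%.

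By role, all 7 transduction genes had a promoter peak in each of the 6 lists, and 11 or 12 of the 12 receptors did in any 1 list. Ligands had one at 6 (TCF7L2, E15.5) to 13 (TCF7L2, E18.5) of 19 genes. Feedback genes and inhibitors had one at 7 to 10 of 11. Among members with a promoter peak, the median transduction gene stood at the 91.8th percentile of bound genes for TCF7L2 at E15.5 against the 92.9th at E18.5. The median bound ligand stood at the 18th and 5.04th, over 6 ligands at E15.5 and 13 at E18.5, so the stages compare different sets. For FOXP1 the median transduction gene was at the 84.0th and 82.5th percentile. The median bound ligand was at the 12.2nd and 10.5th, over 12 and 7 ligands. For ARID1B the medians were 63.3 and 68.4 for transduction genes and 13.9 and 35.5 for ligands, over 8 and 7 of them. Median CpG content rose with the number of lists in which a gene had a promoter peak. The ratio of observed to expected CpG in 500 bp around the TSS had a median of 0.644 in the 5 members with no promoter peak, 0.816 in the 19 with peaks in 1 to 5 lists and 0.939 in the 25 with peaks in all 6, and over all genes the same medians were 0.222, 0.631 and 0.864. Its part in the differences between roles was not tested.

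**Figure D3:**
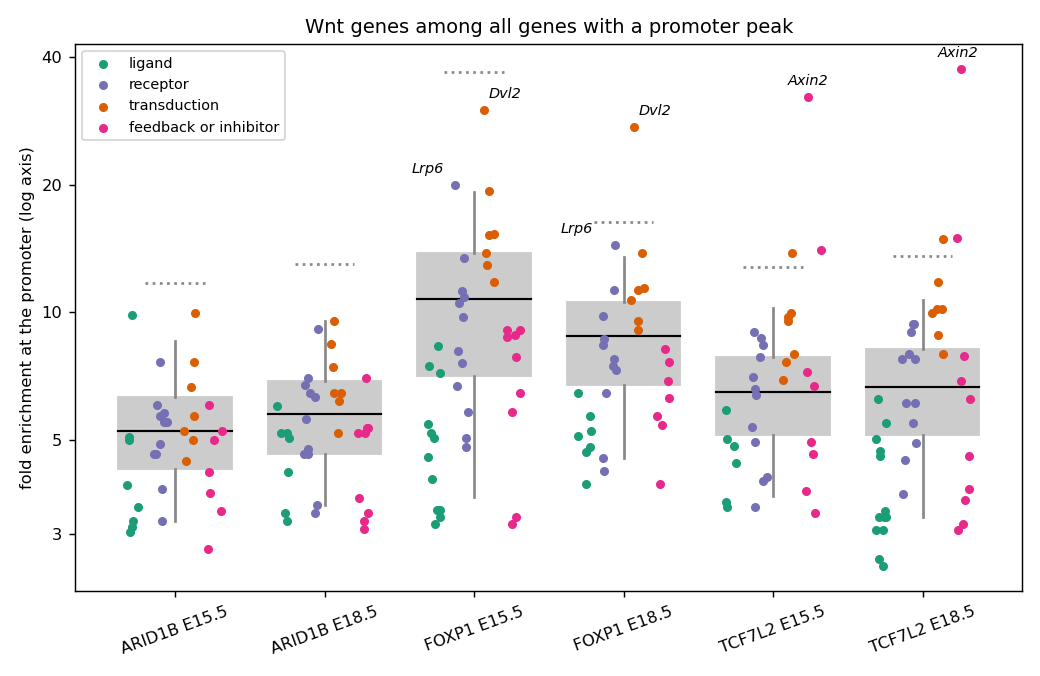
Promoter fold enrichment (y axis, log scale) of each member with a promoter peak, by list and colored by role. Gray boxes span the quartiles of all bound genes with the median as a line, whiskers the 5th to 95th percentile and dotted lines the 99th; Axin2, Znrf3 and Ctnnb1 lie above the 99th percentile for TCF7L2 at both stages, and Dvl2 does for FOXP1 at E18.5.

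Among the ligands, Wnt5a, Wnt7a, Wnt7b and Wnt11 had a promoter peak in all 6 lists. Wnt7a, a ligand made by cortical progenitors and neurons, had fold enrichments of 5.08 (ARID1B), 7.47 (FOXP1) and 5.88 (TCF7L2 peaks) at E15.5 against 5.05, 6.44 and 6.24 at E18.5. Wnt7b, its close relative, had 4.99, 7.21 and 5.04 at E15.5 against 6.03, 5.71 and 5.47 at E18.5. Wnt5a, known mainly for signaling without β-catenin, had 3.93, 5.44 and 4.83 at E15.5 against 5.19, 5.27 and 5.04 at E18.5. These ligands lay near or below the median of bound genes in each list, apart from Wnt7b for ARID1B at E18.5 (6.03 against a median of 5.75), whose summit lay upstream of the promoter stretch. With the peak nearest to a TSS that value was 3.93, below the median. Wnt1, Wnt3a, Wnt8a, Wnt8b and Wnt10b had no promoter peak in any list. Wnt3a marks the cortical hem, a narrow signaling center at the medial edge of the cortex. The peak nearest to the Wnt3a TSS was 7850 bp away (ARID1B, E18.5) and in the other lists 11913 to 12017 bp away. Including some at promoters of the neighboring Wnt9a, 4 to 8 peaks per list lay in the gene body and flanks of Wnt3a. All 3 TRs met in its intron at both stages (chr11:59263642-59264969 at E15.5) at 5.70 for ARID1B, 5.95 for FOXP1 and 4.31 for TCF7L2, and at E18.5 at 6.17, 4.97 and 4.27. Wnt8b had 0 to 2 peaks per list in its window. Wnt10b was missed narrowly in 4 lists, where a peak began 146 to 289 bp from a TSS, outside the upstream stretch.

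Among the receptors, Fzd1 had fold enrichments of 7.66 (ARID1B), 10.9 (FOXP1) and 9.01 (TCF7L2 peaks) at E15.5 against 9.12, 8.65 and 9.41 at E18.5. It was among the 3 highest members for ARID1B at both stages, level with Gsk3b at E15.5. Fzd3, which is needed for axon guidance in the forebrain, had 5.79, 13.4 and 7.86 at E15.5 against 6.31, 11.3 and 7.99 at E18.5. Fzd7 had 4.64, 10.5 and 8.69 at E15.5 against 4.63, 8.36 and 9.41 at E18.5. Fzd9 had 4.90, 9.75 and 6.40 at E15.5 against 5.61, 9.83 and 7.77 at E18.5. The co-receptors stood apart from each other for FOXP1. Lrp6 had a FOXP1 fold enrichment of 19.997 (17.0 to 23.4) at E15.5 against 14.4 (11.7 to 17.5) at E18.5, ranks 563 of 13183 and 317 of 11789 genes. Lrp5 had 7.59 (5.81 to 9.76) and 6.44 (4.72 to 8.62), so that the counting intervals did not overlap at either stage. For ARID1B, Lrp6 had 4.64 and 4.63, and Lrp5 had 3.84 at E15.5 against no promoter peak at E18.5. For TCF7L2, Lrp6 had 6.61 and 7.77 and Lrp5 had 4.00 and 4.93.

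Ctnnb1, which encodes β-catenin, was the transduction gene of greatest height for ARID1B and TCF7L2. Its fold enrichments were 9.97 (ARID1B), 19.4 (FOXP1) and 13.8 (TCF7L2 peaks) at E15.5 against 9.54, 13.8 and 14.9 at E18.5. These rank 291, 636 and 71 among bound genes at E15.5 against 569, 470 and 62 at E18.5. Ctnnb1 was thus among the 3 highest members in each of the 6 lists. Its summits lay at an internal TSS, 4138 to 4206 bp inside the annotated gene. Apc, the scaffold of the destruction complex, had 5.26, 15.3 and 9.74 at E15.5 against 6.45, 11.3 and 9.96 at E18.5. The peak nearest to a TSS gave 5.46 for TCF7L2 at E15.5. Axin1 had 4.99, 12.9 and 7.96 at E15.5 against 6.45, 9.53 and 8.87 at E18.5, so that its TCF7L2 peak was well below that of Axin2, with separate counting intervals (6.29 to 9.95 at E15.5). The kinase gene Gsk3b had 7.66, 15.2 and 9.95 at E15.5 against 7.43, 11.4 and 11.8 at E18.5. Dvl2, which relays the signal from Frizzled, had the highest FOXP1 peak of all members, 29.996 (26.3 to 34.1) at E15.5 against 27.3 (23.6 to 31.5) at E18.5. It ranked 263 of 13183 and 10 of 11789 genes. Dvl1 and Dvl3 had FOXP1 values of 13.8 and 11.8 at E15.5 against 10.7 and 9.09 at E18.5.

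**Figure D4:**
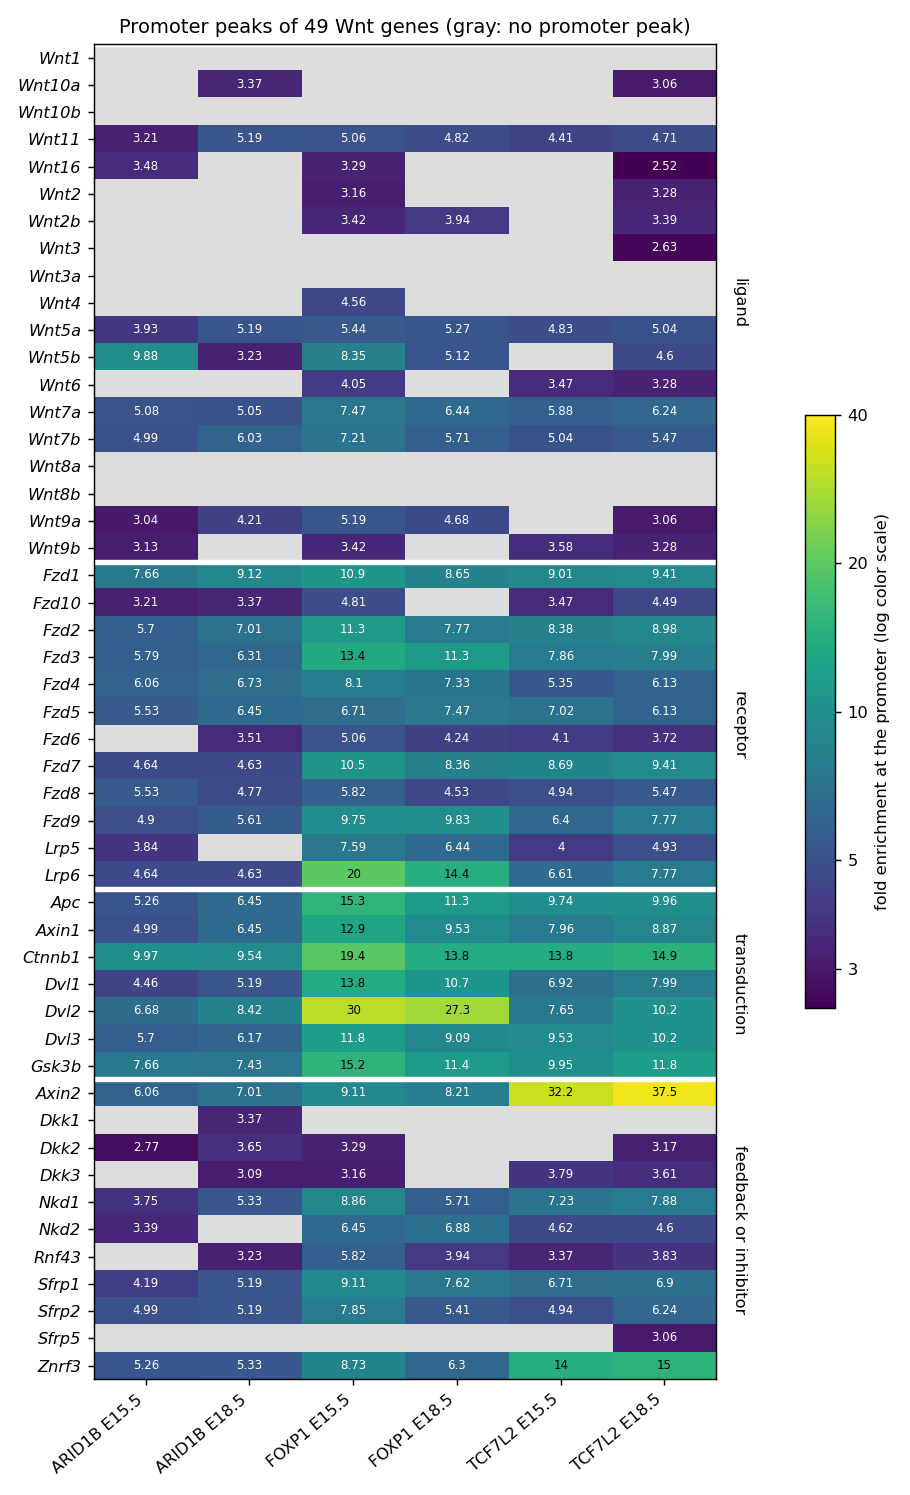
Promoter fold enrichment (color, log scale, value in each cell) of the 49 members (rows, by role) in the 6 lists (columns); gray cells have no promoter peak. The transduction block is filled throughout, and the highest cells are Axin2 for TCF7L2 and Dvl2 for FOXP1.

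Znrf3, a membrane ubiquitin ligase that removes Frizzled from the cell surface, followed Axin2 for TCF7L2, with 14.0 (11.8 to 16.6) at E15.5 against 15 (12.6 to 17.7) at E18.5, ranks 58 and 57. For ARID1B it had 5.26 and 5.33 and for FOXP1 8.73 and 6.30. Its partner Rnf43 was lower, with TCF7L2 values of 3.37 (2.33 to 4.73) and 3.83 (2.69 to 5.31), FOXP1 values of 5.82 and 3.94, and an ARID1B peak of 3.23 at E18.5 only. The TCF7L2 counting intervals of these ligases were separate at both stages. Nkd1, an inhibitor that acts at Dishevelled, had 3.75 (ARID1B), 8.86 (FOXP1) and 7.23 (TCF7L2 peaks) at E15.5 against 5.33, 5.71 and 7.88 at E18.5. In its intron, about 51 kb from the start, ARID1B peaked at 15 (12.9 to 17.5) at E15.5 against 14.7 (12.1 to 17.8) at E18.5, above its own promoter. Of the secreted inhibitors, Sfrp1 had 4.19, 9.11 and 6.71 at E15.5 against 5.19, 7.62 and 6.90 at E18.5. Sfrp2 had 4.99, 7.85 and 4.94 at E15.5 against 5.19, 5.41 and 6.24 at E18.5, where the peak nearest to a TSS gave 3.09 for ARID1B. Dkk3 had 3.16 for FOXP1 and 3.79 for TCF7L2 at E15.5 against 3.09 for ARID1B and 3.61 for TCF7L2 at E18.5. Dkk1, which blocks LRP5/6, had a promoter peak for ARID1B at E18.5 alone (3.37), and Sfrp5 had one for TCF7L2 at E18.5 alone (3.06).

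Promoter peaks listed at 1 stage only were low. For ARID1B, 4 members had one at E15.5 only (2.6% of all genes), namely Wnt9b, Wnt16, Lrp5 and Nkd2, and 5 at E18.5 only (1.16%), namely Wnt10a, Fzd6, Dkk1, Dkk3 and Rnf43. For FOXP1, 8 had one at E15.5 only (6.78%), namely Wnt2, Wnt4, Wnt6, Wnt9b, Wnt16, Fzd10, Dkk2 and Dkk3, and 0 at E18.5 only (0.0769%). For TCF7L2, 0 had one at E15.5 only (0.317%) and 9 at E18.5 only (4.14%), namely Wnt2, Wnt2b, Wnt3, Wnt5b, Wnt9a, Wnt10a, Wnt16, Dkk2 and Sfrp5. The heights of these peaks ran from 2.52 (Wnt16, TCF7L2) to 4.81 (Fzd10, FOXP1). For FOXP1 and TCF7L2 the stage with the longer list had more of these members. For ARID1B the lists were closer in length, 70709 peaks on chromosomes 1 to 19 for E15.5 and 67787 for E18.5, and the shorter list had 1 member more. The part of list length in these counts was not tested. In lists of equal length, promoter peaks were at 32 members at both stages for FOXP1, and at 30 and 31 for TCF7L2. In several cases a peak lay just outside the promoter at the other stage, 7 bp from a TSS for Wnt9b and FOXP1 and 20 bp for Dkk3 and ARID1B.

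Where a member had a promoter peak at both stages, its change in height was read beside that of all genes. The highest peak was taken at each stage, so the values need not come from the same site. Summits of the stages lay within 100 bp at 20 of 29 ARID1B members (58.5% of all genes bound at both stages). For FOXP1 they did at 21 of 32 (68.6%) and for TCF7L2 at 22 of 33 (66%). At Wnt7b they were 1498 bp apart for FOXP1 and 4183 bp for TCF7L2, and at Sfrp2 1651 bp and 2019 bp. The median log2 ratio of E18.5 to E15.5 fold enrichment was 0.21 for ARID1B over 29 members (0.11 over all genes bound at both stages), -0.33 for FOXP1 over 32 members (-0.35) and 0.11 for TCF7L2 over 33 members (0.08). Counting intervals of the stages were separate at 1 member, Wnt5b for ARID1B, with 9.88 at E15.5 against 3.23 at E18.5. Over all genes bound at both stages, separate intervals lower at E18.5 were found at 0.033% for ARID1B, 12.8% for FOXP1 and 0.0327% for TCF7L2, and higher at E18.5 at 0.132%, 0.0425% and 0.114%. Of the 32 members in the FOXP1 comparison, 0 had separate intervals. The higher Wnt5b peak was present at E18.5 too, with a summit at chr6:119452212 and a fold enrichment of 12.2, but its edge no longer reached an annotated promoter.

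**Figure D5:**
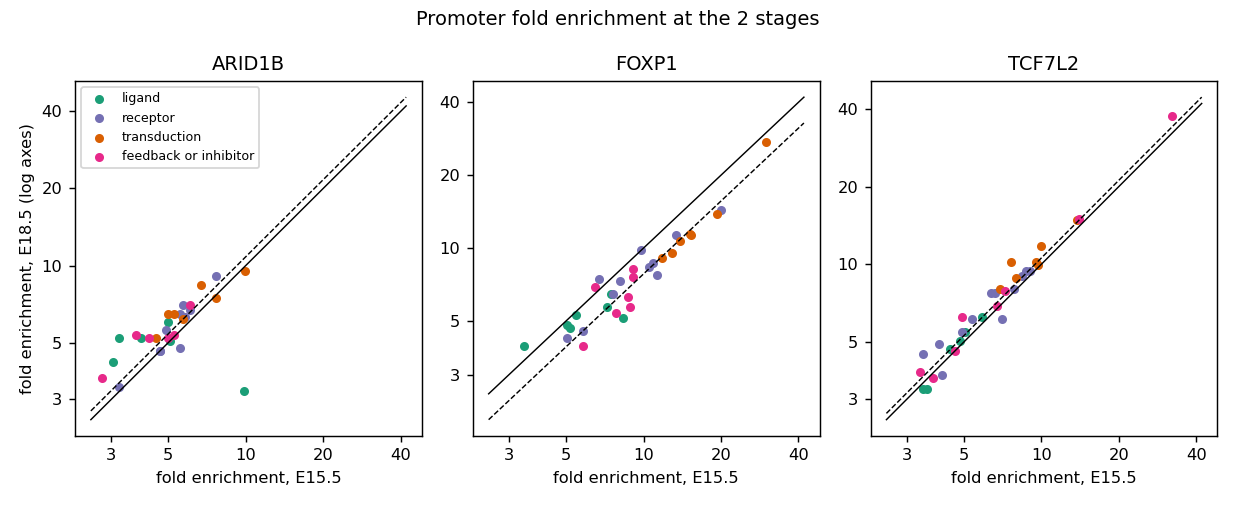
Promoter fold enrichment at E15.5 (x axis) and E18.5 (y axis), both log scales, of members bound at both stages, 1 panel per TR and colored by role. The solid line marks equal values and the dashed line the median ratio of all genes; most FOXP1 points lie below the solid line, as the median log2 ratio of -0.33 gives.

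Beyond promoters, a peak in the gene body or 20 kb flanks was found at 47 members for ARID1B at E15.5 (78% of all genes), 49 for FOXP1 at E15.5 (79.1%), 46 for TCF7L2 at E15.5 (73.4%), 46 for ARID1B at E18.5 (77.1%), 43 for FOXP1 at E18.5 (72.2%) and 49 for TCF7L2 at E18.5 (76.7%). When peaks under a −log10 p of 15 were dropped, the count for FOXP1 at E18.5 was 26. The windows of 4 pairs of neighbors overlapped (Wnt6 and Wnt10a, Wnt3a and Wnt9a, Wnt9b and Wnt3, Wnt10b and Wnt1), and the 3717 kb that all windows cover were counted once. The member windows held 6.78, 7.13 and 4.65 peaks per 100 kb for ARID1B, FOXP1 and TCF7L2 at E15.5 against 7.37, 2.96 and 7.88 at E18.5. Windows of all protein-coding genes held 3.81, 3.58 and 2.06 at E15.5 against 3.68, 1.54 and 3.20 at E18.5. Summed over the 6 lists, Dvl2 had the densest window, 143 peaks per 100 kb, followed by Wnt1 (93.2), Wnt10a (91.1), Fzd9 (87.5) and Axin2 (83.8). Part of these peaks lay at promoters of genes that are no members, 29 to 46 per list over all windows.

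Overlapping peaks were merged into loci. Loci at promoters of any gene had all 3 TRs at 67.3% of places in member windows at E15.5, against 66.1% over chromosomes 1 to 19, and at 48.8% at E18.5, against 57.2%. Distal loci, at no annotated promoter, were bound by all 3 TRs at 45 of 188 places (23.9%) in member windows at E15.5, against 18.1% over chromosomes 1 to 19, and at 25 of 224 (11.2%) at E18.5, against 10.4%. Znrf3, Nkd1 and Wnt10a had 5 each at E15.5, against 2, 1 and 4 in turn at E18.5. A Znrf3 locus at E15.5 (chr11:5255393-5256944) crossed the window edge, and only its ARID1B peak reached into the window. Wnt6 shared 3 of the Wnt10a loci at E15.5 and 1 at E18.5. Downstream of Wnt7a a distal locus of all 3 TRs (chr6:91359561-91360626) had 12.6 (ARID1B), 10.4 (FOXP1) and 6.19 (TCF7L2 peaks) at E15.5. Each was above the Wnt7a promoter, but for FOXP1 and TCF7L2 the counting intervals of locus and promoter overlapped. At E18.5 the locus had 13.2, 5.12 and 5.80, above that promoter for ARID1B and, with overlapping intervals, below it for FOXP1 and TCF7L2. Upstream of Wnt11 another (chr7:98814582-98817384) had 6.77, 16.5 and 8.07 at E15.5, and at E18.5 its values were 6.73, 10.4 and 7.12.

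The TCF/LEF core was found in 9 of 173 TCF7L2 peaks of member windows at E15.5 (5.2%, exact binomial 95% interval 2.41 to 9.65), against 2.35% of all TCF7L2 peaks. At E18.5 it was found in 13 of 293 (4.44%, 2.38 to 7.47), against 2.58%. These member shares depended on the peaks and bases searched. They were 3.33% and 2.56% when peaks under a −log10 p of 15 were dropped, 3.05% and 2.63% in lists cut to equal length, and 2.31% and 2.39% within 100 bp around the summit, for E15.5 and E18.5 in turn. In distal peaks alone they were 7.61% and 5.11%, against 3.18% and 3.19% of the distal peaks in the lists. In ARID1B peaks the shares were 2.78% and 2.55% against 2.53% at both stages, and in FOXP1 peaks 3.77% and 1.82% against 2.38% and 1.81%. The FOXP1 shares also depended on the choices made. In distal peaks alone they were 4.91% and 0%, against 2.8% and 2.51%, and other alternatives are given in the last section. The forkhead core TGTTTAC was found in 2 of 265 FOXP1 peaks of member windows at E15.5 (0.755%, 0.0915 to 2.70), against 2.89% of the list, and in 0 of 110 at E18.5 (up to 3.30), against 2.28%. CATCTG, an E-box bound by the unrelated factor that shares the name TCF4, was found in 15% and 15.7% of TCF7L2 peaks in member windows, against 17.5% and 19.2% of the lists. Each match is a description of letters under a peak.

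Other genes of the pathway were counted from a list of 56, all autosomal. Promoter peaks were found at 50 (ARID1B), 53 (FOXP1) and 49 (TCF7L2) of them at E15.5 against 48, 42 and 52 at E18.5, beside 60.9%, 63.4% and 59.1% of all genes at the earlier stage and 59.4%, 56.7% and 63% at the later. All 20 transducers were bound in each list except FOXP1 at E18.5, where Lef1 and Amer2 were not. Pygo2, a β-catenin cofactor, had TCF7L2 values of 14.6 and 15.7, ranks 49 and 46. Tle3, a corepressor that TCF/LEF factors recruit, had ARID1B values of 15.3 and 15.1, ranks 33 and 58. Sp5, a common Wnt target, had TCF7L2 values of 10.5 and 10.8 but ARID1B values of 3.48 and 4.07. Myc and Ccnd1, also listed as common targets, had TCF7L2 values of 7.34 each at E15.5 against 7.66 and 6.90 at E18.5. Lgr5, listed as well, had 4.00 and 3.28. Dkk4, Rspo4 and Sostdc1 had no promoter peak in any list.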

How the data were processed

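Peak lists of 3 TRs in wild-type mouse cortex, 1 per TR and stage, were the starting point. The methods say that reads were mapped with BWA 0.7.15 to mm10 (GRCm38). The authors then filtered them by mapping quality with SAMtools, merged the replicates and called narrow peaks against input with MACS2 2.2.7, without a local background. The deposited lists hold the ratio of summit reads to background (fold enrichment), −log10 of the p-value and of the q-value, and a score computed by the authors' peak caller, which was not used. A background without local terms leaves differences in chromatin accessibility along the genome in the fold enrichments. In the labels a list belongs to replicate 1, but it was treated as merged, because the methods describe calling on merged replicates.

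Genes and TSSs came from GENCODE vM21 on GRCm38; the methods name a later GENCODE release, so calls at single genes may differ, above all where a peak ends a few bases from a promoter. A promoter was the stretch of 2000 bp before a TSS, and a peak counted there from 1 shared base. The background and the worth of 1 ChIP read were solved from the pairs of fold enrichment and p-value under a Poisson model, and summit reads came out whole within 0.05 for 100% of peaks. This and the promoter assignment were tested on simulated data. The named genes were the pathway genes best known in cortex or as feedback, the 3 highest members per list, members with no promoter peak, members bound at 1 stage only and the 5 densest windows. Members and lists were chosen with earlier results of these data known. Python 3.11.15, pandas 2.3.3, NumPy 2.4.6, SciPy 1.17.1 and pysam 0.24.0 were used. Alternatives changed the p-value threshold, list length, promoter, window and motif definitions. Peaks of BCL11A and TBR1 were not analysed here. Sequences were printed for the highest Axin2 peak of TCF7L2 and for the members with the highest core-holding peaks, of which 1 chosen is not reported here.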

Additional observations from a re-analysis of the deposited data

How the results depend on the processing

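No paired analysis was possible because the lists were treated as called on merged replicates, and for the same reason no replicate could be left out. When a −log10 p under 15 was left out, promoter peaks remained at 22 members for ARID1B and 18 for FOXP1 at E18.5, peaks of all 3 TRs at 15 at E18.5, window peaks at 26 for FOXP1 at E18.5, and the TCF/LEF core in 0% of FOXP1 peaks at E18.5. With lists cut to the length of the shortest, ARID1B promoter peaks were at 21 members at E15.5 and 22 at E18.5. With the summit required inside the promoter, all 3 TRs had a promoter peak at 18 members at E15.5 and 19 at E18.5. Within 100 bp around summits the core share was 1.13% for FOXP1 and 2.31% for TCF7L2 at E15.5 and 0.73% for ARID1B at E18.5, and in distal peaks 0% for FOXP1 at E18.5. The causes were not tested. The other alternatives kept counts of members within 1.5 times. Core shares that moved by more than that within their counting intervals were, beside the TCF7L2 values given with the result, 4.65% (p threshold), 5.06% (equal lengths) and 1.19% (100 bp) for ARID1B at E15.5 and 0.909% (100 bp) for FOXP1 at E18.5. For the genes best known in cortex or as feedback only, the peak nearest to a TSS was also taken. This moved 9 promoter values outside their counting intervals and left 108 within. All 9 values moved downward, because the starting value was that of the highest peak. At E15.5 these were Axin2 (3.48), Wnt5a (2.86) and Wnt7b (3.66) for ARID1B and Apc (5.46) and Wnt5a (3.27) for TCF7L2. At E18.5 they were Sfrp2 (3.09) and Wnt7b (3.93) for ARID1B and Axin2 (2.74) and Wnt5a (3.39) for TCF7L2. The lowest fold enrichment listed ran from 2.33 (ARID1B, E15.5) to 3.21 (FOXP1, E18.5), and binding below it was not detectable in that list.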
